A study of Caenorhabditis elegans with 6 samples.

Results

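The transporter genes described here were taken from the Caenorhabditis elegans genome by symbol alone: every gene whose WBcel235 symbol begins with aat-, pept-, snf-, slc-36. or skat-. The rule gave 30 genes of the 46589 identifiers in the tables, 28 protein coding and 2 annotated as pseudogenes, and all 30 had FPKM above 0 in at least 1 library. FPKM is the number of fragments per kilobase of gene model, scaled to library size, so levels can be set side by side between genes. RNA came from whole bodies of wild-type young adult hermaphrodites kept at 20 °C, in 3 control libraries and 3 libraries from animals that received 5 mM tryptophan for 36 h starting at the last larval stage (L4). Both groups were of the same genotype and stage by label, and the labels do not say whether replicates were separate cultures, so a p-value here weighs a difference against the spread among these libraries alone. The comparison asks whether genes that move amino acids and peptides across membranes differ in mRNA level when an essential amino acid is supplied in excess.

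Animals take up nitrogen from food both as free amino acids and as short peptides, and the carriers fall into families with different mechanisms. The aat genes encode SLC7-type exchangers, several of which work as a light chain bound to a glycoprotein heavy chain. The pept genes encode SLC15-type carriers that bring in peptides of a pair or a trio of residues together with protons. The slc-36 genes and skat-1 encode SLC36-type amino acid carriers, some of which sit on lysosomes. The snf genes encode SLC6-type carriers driven by sodium, a family that also moves betaine and neurotransmitters, so the set holds some genes whose substrate is not an amino acid.

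None of the transporter genes passed the test between tryptophan and control. With a filter of a mean of at least 1 FPKM, 25 genes were tested, and 0 had a limma adjusted p under 0.05 over all genes tested, against 0% of all 13511 tested genes. At an unadjusted p under 0.05 the counts were 0 of 25 transporter genes and 158 of 13511 genes. The adjusted p of the members ran from 0.802 to 0.99, and the 95% interval of the log2 fold change held 0 for all 25. The log2 fold change was above 0 for 16 tested members and below 0 for 9, with a median of 0.17 against -0.03 over all tested genes. That median was -0.08 without control library 1, 0.01 without tryptophan library 2, 0.05 without tryptophan library 3 and 0.28 to 0.29 without any of the other libraries, and quantile normalization gave -0.05.

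Much of the width of these intervals went with a pair of libraries. On the first principal component of all tested genes, control library 1 had the lowest score (-140.7) and tryptophan library 1 the highest (117.5). The correlation between these libraries over genes was 0.578, and among the remaining 4 it was 0.960 to 0.980. Summed yolk genes (6 of 6 detected) came to 19564 FPKM in control library 1 and to 406 FPKM in tryptophan library 1, against 946 to 3951 in the other 4. Summed oocyte genes (20 of 20) stood at 13442 and 1536 FPKM, against 2405 to 3527, while the 31 sperm protein (msp) genes ran the other way, at 508 and 22030 FPKM, against 5600 to 8584. Lists for intestine, neuron, muscle and epidermis were all detected, and male genes reached at most 1.65 FPKM. The estimated depth was 14.5 to 24.9 M (mega) counted units per library. Each log2 fold change of a gene below is therefore given from all libraries and from libraries 2 and 3 of each group. The part of germline, yolk and other tissue content in it was not tested.

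**Figure D1:**
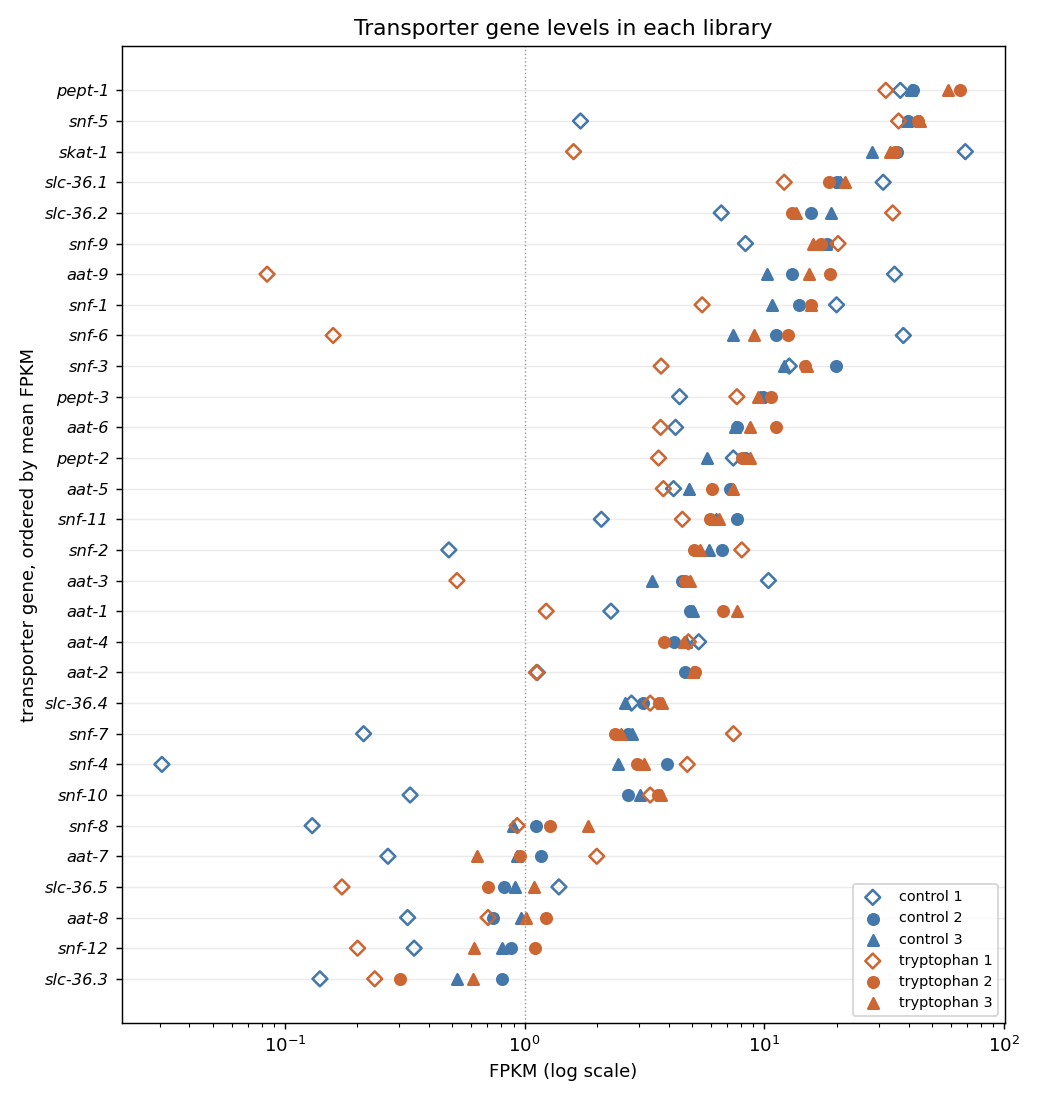
FPKM of the 30 transporter genes in each of the 6 libraries, on a log axis, ordered by mean; open diamonds are library 1, filled circles library 2 and filled triangles library 3 of each group, and the dotted line is the filter at 1 FPKM. Both open diamonds lie outside the other 4 points for genes such as skat-1, aat-9 and snf-6, tryptophan library 1 the farther. For snf-5 only control library 1 lies far outside, and pept-1 has the highest mean.

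Peptide carriers are described first, since pept-1 was the most abundant member. pept-1 (K04E7.2, chromosome X, 6456872 to 6461767) encodes the carrier that takes up peptides at the luminal face of the intestine. Its FPKM was 36.9, 41.7 and 40.8 in control libraries 1 to 3 and 32.1, 65.2 and 58.3 in tryptophan libraries 1 to 3. Tryptophan libraries 2 and 3 lay above every control, and tryptophan library 1 lay below every control, so the groups overlapped. The means were 39.8 ± 2.55 and 51.9 ± 17.5 FPKM (SD, n = 3 each), and the log2 fold change was 0.31 (SE 0.40, 95% interval -0.63 to 1.26; limma adjusted p = 0.823). Without tryptophan library 1 and control library 1 the log2 fold change was 0.57 (SE 0.19). In that fit pept-1 was the 1 member of 25 with an unadjusted p under 0.05, a mark that 14% of all tested genes reached, and its limma adjusted p over all genes was 0.281.

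Both other peptide carriers were lower and showed no shift in libraries 2 and 3 that exceeded the spread. pept-2 (C06G8.2, chromosome IV, 10790653 to 10794559), the high-affinity carrier, had 7.42, 8.28 and 5.76 FPKM in control and 3.62, 8.08 and 8.69 FPKM with tryptophan. The groups overlapped, tryptophan library 1 being lowest, and the log2 fold change was -0.13 (SE 0.46), or 0.24 (SE 0.24) in libraries 2 and 3. pept-3 (F56F4.5, chromosome I, 6133245 to 6137977), a proton-coupled peptide carrier of neurons, had 4.43, 9.87 and 9.63 FPKM in control and 7.68, 10.7 and 9.37 FPKM with tryptophan. Its groups overlapped too, control library 1 was lowest, and the log2 fold change was 0.25 (SE 0.45), or 0.03 (SE 0.21) in libraries 2 and 3. nhx-2, whose sodium-proton exchange supports PEPT-1, had 16, 32.0 and 32.1 FPKM in control and 25.4, 36.8 and 35.4 FPKM with tryptophan, and its log2 fold change was 0.32 (SE 0.43; limma adjusted p = 0.830), or 0.17 (SE 0.19) in libraries 2 and 3.

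**Figure D2:**
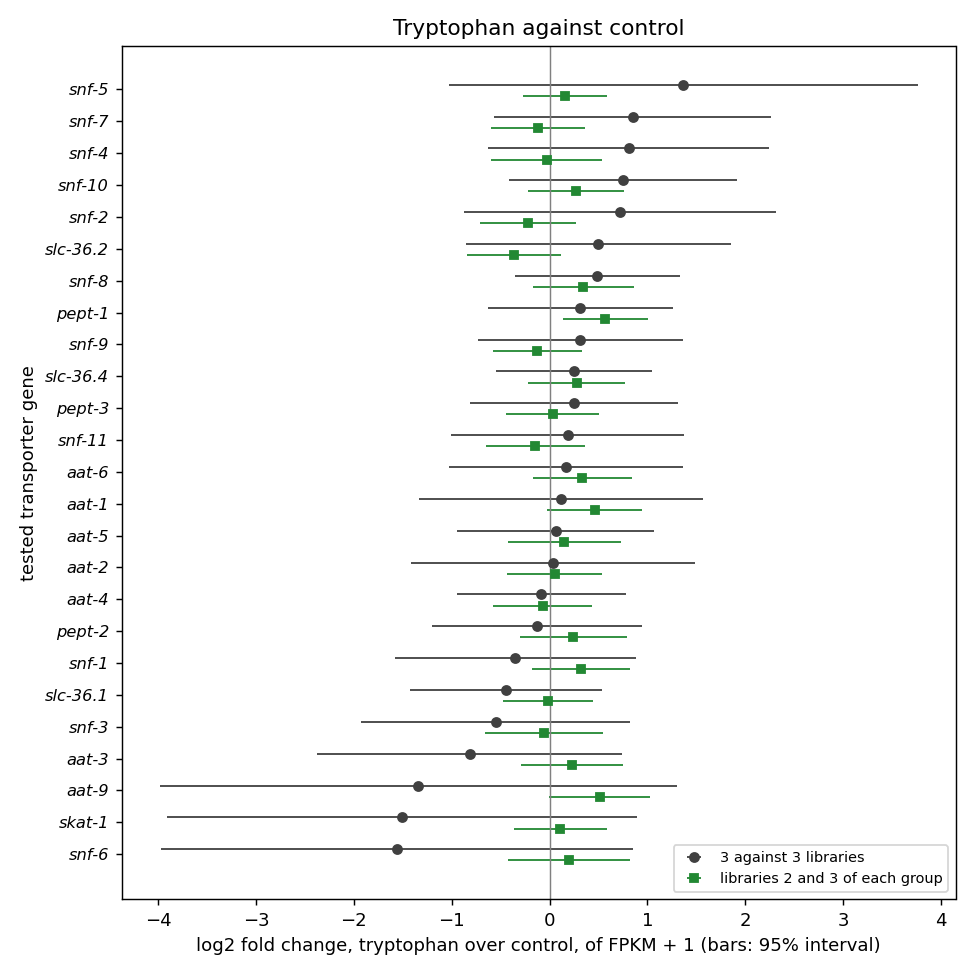
Log2 fold change of FPKM + 1, tryptophan over control, for the 25 tested transporter genes with 95% limma intervals; circles use all 6 libraries and squares libraries 2 and 3 of each group. Every interval from 6 libraries holds 0, and the widest belong to aat-9, skat-1, snf-6 and snf-5.

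Of the 9 SLC7-type exchangers 7 were tested, and aat-9 varied most. aat-9 (Y53H1C.1, chromosome I, 11388682 to 11396662) encodes an exchanger of aromatic amino acids, the class to which tryptophan belongs, made in neurons and muscle. It stood at 34.9, 13 and 10.3 FPKM in control libraries 1 to 3 and at 0.0843, 18.8 and 15.3 FPKM in tryptophan libraries 1 to 3. Control library 1 was the highest and tryptophan library 1 the lowest, the latter amounting to about 3.1 counted units over the longest transcript. Its log2 fold change was -1.34 (SE 1.13, interval -3.98 to 1.30; limma adjusted p = 0.802). In libraries 2 and 3 both tryptophan values lay above both controls, and the direction turned, at 0.51 (SE 0.22, limma adjusted p = 0.359). The end of aat-9 overlaps png-1 on the opposite strand by 70 bases, and png-1 had 26.3 FPKM in control library 1 and 13.3 to 18.9 FPKM in the other 5.

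aat-1 and aat-3 encode light chains that, in heterologous expression, exchange amino acids together with the heavy chain ATGP-2. aat-1 (F27C8.1, chromosome IV, 9599178 to 9601695) had 2.29, 4.88 and 5.02 FPKM in control and 1.23, 6.73 and 7.69 FPKM with tryptophan. Both libraries numbered 1 were lowest, and the remaining tryptophan libraries were above the remaining controls, with a log2 fold change of 0.12 (SE 0.62) over all libraries and 0.46 (SE 0.21, limma adjusted p = 0.378) in libraries 2 and 3. aat-3 (F52H2.2, chromosome X, 2552260 to 2557736) had 10.4, 4.54 and 3.39 FPKM in control and 0.522, 4.65 and 4.91 FPKM with tryptophan. It followed the pattern of aat-9, high in control library 1 and low in tryptophan library 1, and its log2 fold change went from -0.82 (SE 0.66) to 0.23 (SE 0.22) in libraries 2 and 3. Of the heavy chain genes, atgp-1 had 21.1 ± 7.41 and 23.7 ± 8.83 FPKM (SD, n = 3 each), a log2 fold change of 0.15 (SE 0.48), or 0.18 (SE 0.22) in libraries 2 and 3. The other, atgp-2, had 9.53, 10.1 and 8.85 FPKM in control and 5.57, 9.58 and 9.05 FPKM with tryptophan, a log2 fold change of -0.24 (SE 0.41), or -0.02 (SE 0.21) in libraries 2 and 3.

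aat-6 (T11F9.4, chromosome V, 11466842 to 11470663) encodes an exchanger at the luminal face of the intestine, held there by the scaffold protein NRFL-1. Its FPKM was 4.26, 7.72 and 7.56 in control and 3.69, 11.2 and 8.73 with tryptophan, with both libraries numbered 1 lowest. Its estimate was a log2 fold change of 0.17 (SE 0.51) over all libraries and 0.33 (SE 0.22, limma adjusted p = 0.516) in libraries 2 and 3. nrfl-1 itself had 29.2, 38.3 and 34 FPKM in control and 9.09, 48.0 and 55.7 FPKM with tryptophan, and its log2 fold change went from -0.19 (SE 0.68) to 0.51 (SE 0.20, limma adjusted p = 0.314).

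The remaining exchangers gave small estimates. aat-2 (F07C3.7, chromosome V) had 1.13, 4.68 and 5.03 FPKM in control and 1.12, 5.13 and 5.02 FPKM with tryptophan, so the levels matched number by number and the log2 fold change was 0.03 (SE 0.62), or 0.05 (SE 0.21) in libraries 2 and 3. aat-5 (C55C2.5, chromosome I) had 4.18 to 7.22 FPKM in control and 3.79 to 7.40 FPKM with tryptophan, a log2 fold change of 0.06 (SE 0.43), or 0.15 (SE 0.25) in libraries 2 and 3. aat-4 (T13A10.10, chromosome IV) had the smallest range of the 7, at 4.21 to 5.32 FPKM in control and 3.80 to 4.82 FPKM with tryptophan, and a log2 fold change of -0.09 (SE 0.37), or -0.07 (SE 0.22) in libraries 2 and 3. aat-7 and aat-8 were below the filter and were not tested. aat-7 had 0.269 to 1.17 FPKM in control and 0.635 to 2.0 FPKM with tryptophan, and aat-8 had 0.325 to 0.964 and 0.704 to 1.23 FPKM.

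Among the SLC36-type genes the levels of skat-1 spread most. skat-1 (F59B2.2, chromosome III, 8994645 to 8996786) had 68.9, 35.6 and 28.1 FPKM in control and 1.60, 35.2 and 33.4 FPKM with tryptophan. The 4 libraries numbered 2 and 3 lay within 1.27-fold of each other, and control library 1 was 42.9-fold above tryptophan library 1, a ratio of 2 single libraries. Over all libraries the log2 fold change was -1.51 (SE 1.03, interval -3.91 to 0.89; limma adjusted p = 0.802), and it was 0.11 (SE 0.20) in libraries 2 and 3. R08D7.7, which overlaps it by 175 bases on the opposite strand, had at most 2.67 FPKM.

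slc-36.1 (Y43F4B.7, chromosome III, 13307502 to 13313389) encodes a carrier of the lysosome membrane. It ran the same way with less amplitude, at 31.3, 20.1 and 20.7 FPKM in control and 12.1, 18.6 and 21.7 FPKM with tryptophan (log2 fold change -0.44, SE 0.42, and -0.02, SE 0.20, in libraries 2 and 3). slc-36.2 (T27A1.5, chromosome II, 522602 to 525981) ran the opposite way, at 6.61, 15.7 and 19 FPKM in control and 34.3, 13 and 13.5 FPKM with tryptophan. Its log2 fold change of 0.50 (SE 0.58) became -0.36 (SE 0.21, limma adjusted p = 0.466) in libraries 2 and 3, where both tryptophan values were below both controls.

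slc-36.4 was 1 of 2 members whose groups did not overlap. slc-36.4 (H32K16.1, chromosome I, 9149673 to 9153252) had 2.79, 3.12 and 2.63 FPKM in control and 3.34, 3.63 and 3.74 FPKM with tryptophan, so every tryptophan library was above every control. The means were 2.85 ± 0.249 and 3.57 ± 0.208 FPKM (SD, n = 3 each), the log2 fold change was 0.25 (SE 0.34, interval -0.55 to 1.05) and the limma adjusted p was 0.831. In libraries 2 and 3 the log2 fold change was 0.28 (SE 0.21). It was also the member whose estimate moved least when a library was left out, between 0.21 and 0.30. The groups overlapped for it when each library was rescaled to TPM. slc-36.3 (0.140 to 0.806 FPKM over the 6 libraries) and slc-36.5 (0.173 to 1.39 FPKM) were below the filter and were not tested.

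**Figure D3:**
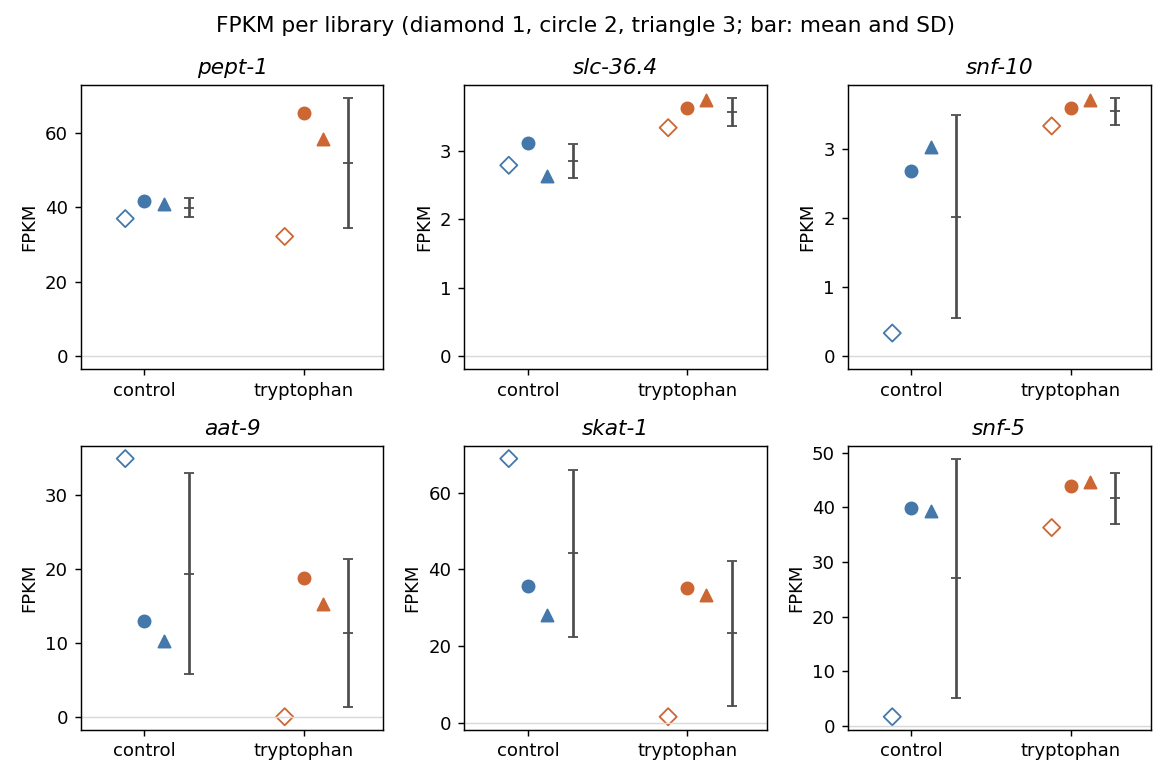
FPKM of pept-1, slc-36.4, snf-10, aat-9, skat-1 and snf-5 in each library, with the mean and SD of each group (n = 3) to the right of its points; vertical axes start at about 0 and differ between panels. The groups separate for slc-36.4 and snf-10, and single open diamonds (library 1) set the spread for aat-9, skat-1 and snf-5.

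Of the 12 SLC6-type genes 11 were tested, including both pseudogenes, and snf-10 was the other member whose groups did not overlap. snf-10 (Y32F6A.2, chromosome V, 10438330 to 10440823) encodes a sperm protein needed for activation by a protease signal. Its FPKM was 0.333, 2.69 and 3.04 in control and 3.34, 3.60 and 3.72 with tryptophan, with control library 1 apart at about 10.1 counted units. The log2 fold change was 0.75 (SE 0.50, interval -0.42 to 1.92; limma adjusted p = 0.802), and it was 0.24 without control library 1 and 0.27 (SE 0.21) in libraries 2 and 3. The summed sperm list was lowest in control library 1 as well, at 508 FPKM. In tryptophan library 1 that sum was highest, at 22030 FPKM, while snf-10 had its lowest tryptophan value there. In libraries 2 and 3 the tested sperm genes had a median log2 fold change of -0.46, opposite in sign to snf-10. The part of sperm content in the level of snf-10 was not tested. snf-10 lies wholly inside the span of set-22 on the opposite strand. FPKM of set-22 was 40.6, 19.3 and 18.7 in control and 5.63, 20.9 and 16.1 with tryptophan. Exon overlap of the pair was not examined, so whether reads were shared between these genes is not known. With snf-10 and slc-36.4, 2 of 25 members (8%) had every tryptophan library above every control, as had 3.98% of all tested genes, and 0 had every one below, against 4.32%. The count of 2 became 7 of 25 (28%) without tryptophan library 1, where 11.9% of all tested genes had such an order, and 4 of 25 (16%) without control library 2, against 6.71%. After rescaling to TPM it was 0, against 4.63%.

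snf-5 had the largest positive estimate, and it rested on control library 1. snf-5 (Y46G5A.30, chromosome II, 12861963 to 12865785) had 1.71, 39.9 and 39.4 FPKM in control and 36.3, 43.9 and 44.7 FPKM with tryptophan. The log2 fold change was 1.37 (SE 1.02, interval -1.03 to 3.76; limma adjusted p = 0.802), 0.06 without control library 1 and 0.16 (SE 0.18) in libraries 2 and 3. snf-4 (Y46G5A.25), a pseudogene 26138 bases away on the same chromosome, was also nearly absent from control library 1, at 0.0307 FPKM or about 1 counted unit, and had 2.46 to 4.77 FPKM in the other 5. The log2 fold change of snf-4 was 0.81 (SE 0.61), or -0.03 (SE 0.25) in libraries 2 and 3. Their sequences were not compared, and whether reads were divided between snf-5 and snf-4 is not known. snf-2 (F55H12.1, chromosome I) had 0.483, 6.64 and 5.86 FPKM in control and 8.05, 5.08 and 5.37 FPKM with tryptophan. snf-7 (ZK1010.9, chromosome III) had 0.213, 2.69 and 2.81 FPKM in control and 7.43, 2.38 and 2.52 FPKM with tryptophan. Their log2 fold changes of 0.72 (SE 0.68) and 0.85 (SE 0.60) turned to -0.22 (SE 0.21) and -0.12 (SE 0.21) in libraries 2 and 3.

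snf-9 (C49C3.1, chromosome IV) was lowest in control library 1 too, at 8.34 FPKM against 15.9 to 20.3 FPKM in the other 5, with a log2 fold change of 0.31 (SE 0.45), or -0.12 (SE 0.19) in libraries 2 and 3. The pseudogene snf-8 (ZK829.10) had 0.130, 1.12 and 0.892 FPKM in control and 0.931, 1.28 and 1.84 FPKM with tryptophan. Its log2 fold change was 0.49 (SE 0.36), or 0.35 (SE 0.22) in libraries 2 and 3. The mean of snf-8 was 0.714 FPKM in control, 1.35 FPKM with tryptophan and 1.03 FPKM over all libraries. It passed the filter at 1 FPKM only through the group where it was higher, and its place among the positive members depends on that.

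The other SLC6-type genes include carriers of substrates other than amino acids, and none of the 4 that were tested passed. snf-6 (M01G5.5, chromosome III, 1519962 to 1532827), which encodes an acetylcholine and choline carrier of muscle, had 38.0, 11.2 and 7.39 FPKM in control and 0.159, 12.6 and 9.03 FPKM with tryptophan. Control library 1 was highest and tryptophan library 1, at about 6.8 counted units, lowest. The log2 fold change was -1.56 (SE 1.03, interval -3.96 to 0.85; limma adjusted p = 0.802), the lowest among the members, and 0.20 (SE 0.27) in libraries 2 and 3. Summed muscle genes (10 of 10 detected) were lowest in tryptophan library 1 as well, at 1735 FPKM against 2987 to 3842 in the other 5. In control library 1, where snf-6 was highest, that sum was 3015 FPKM, within the range of the others. For 0 of the 10 muscle genes was control library 1 highest and tryptophan library 1 lowest, as for snf-6. In whole animals fewer cells of a type and less RNA per cell cannot be told apart. snf-3 (T13B5.1, chromosome II), a betaine carrier, had 12.7, 19.9 and 12.1 FPKM in control and 3.71, 14.8 and 15 FPKM with tryptophan (log2 fold change -0.55, SE 0.59, and -0.06, SE 0.26, in libraries 2 and 3). snf-11 (T03F7.1, chromosome V), the carrier that clears the transmitter GABA, had 2.09, 7.72 and 6.29 FPKM in control and 4.55, 5.94 and 6.48 FPKM with tryptophan and a log2 fold change of 0.18 (SE 0.51). The direction turned in libraries 2 and 3, at -0.15 (SE 0.22), and without control library 1, at -0.27. snf-1 (W03G9.1, chromosome I) had 20.0, 14 and 10.8 FPKM in control and 5.50, 15.6 and 15.7 FPKM with tryptophan and a log2 fold change of -0.35 (SE 0.53). Its direction turned too, to 0.32 (SE 0.21) in libraries 2 and 3 and to 0.10 without tryptophan library 1. snf-12, needed in the epidermis to switch on antimicrobial peptide genes, was below the filter at 0.346 to 0.880 FPKM in control and 0.201 to 1.11 FPKM with tryptophan, and was not tested.

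The members did not follow a common course across the libraries. For 6 of 25 (24%) control library 1 was the highest and tryptophan library 1 the lowest of all, namely aat-3, aat-9, skat-1, slc-36.1, snf-1 and snf-6, against 24% of all tested genes. For 5 (20%) the order was reversed, namely slc-36.2, snf-2, snf-4, snf-7 and snf-9, against 21.4%. For 8 (32%) both libraries lay below the other 4, against 11.2% of all tested genes, and these were aat-1, aat-2, aat-5, aat-6, pept-1, pept-3, snf-5 and snf-11. aat-4 was the 1 member (4%) with both above, against 14.3%. Altogether 20 of 25 (80%) had both libraries numbered 1 outside the range of the other 4, as had 71% of all tested genes. For 9 of 25 (36%) these libraries differed by more than 2 on the log2 scale, against 34.7% of all tested genes. The yolk and oocyte lists were highest in control library 1 and lowest in tryptophan library 1, as were the first 6 of these genes, and the sperm list ran as the 5 did. Both libraries numbered 1 lay below the other 4 for 4 of 12 tested intestine genes and 4 of 10 neuron genes. The same held for 3 of 10 muscle genes and 4 of 10 epidermis genes. The part of germline, yolk and other tissue contents in the member levels was not tested.

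**Figure D4:**
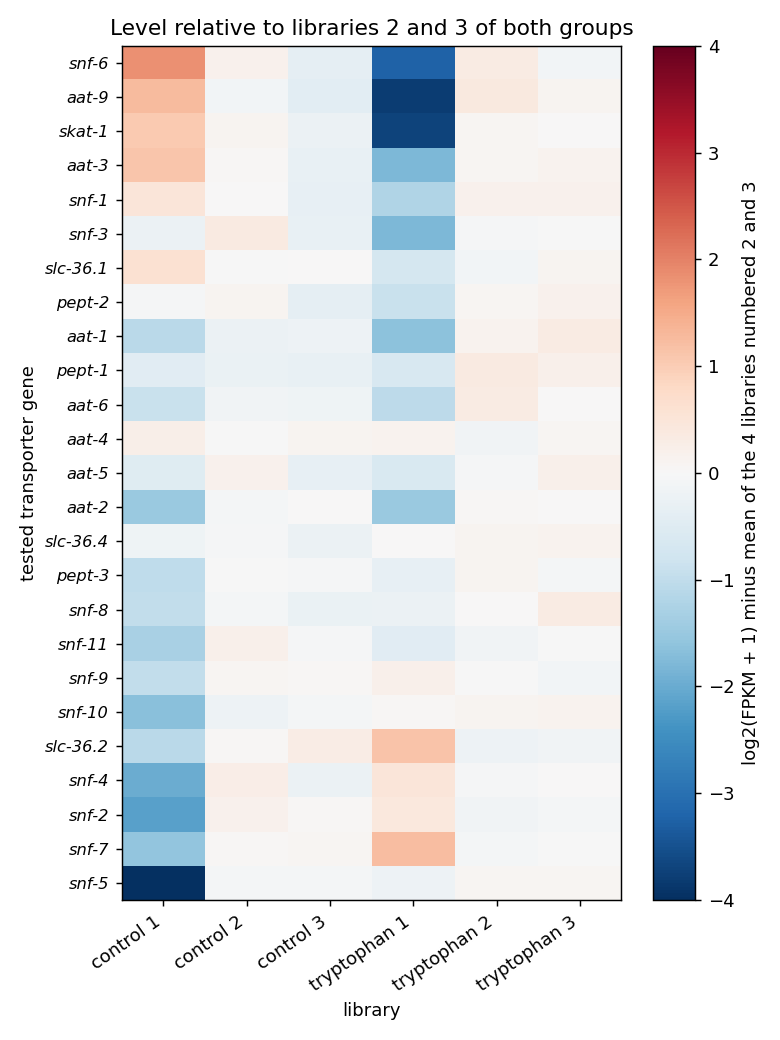
Log2(FPKM + 1) of the 25 tested transporter genes in each library, as the difference from the mean of the 4 libraries numbered 2 and 3, ordered by tryptophan library 1 minus control library 1. Colour is concentrated in the 2 columns of libraries numbered 1, red above and blue below that mean, with opposite signs for genes such as snf-6 at the top and snf-7 near the bottom.

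In the 4 libraries numbered 2 and 3 the members varied little. For 16 of 25 (64%) these 4 values lay within 1.5-fold of each other, against 45.9% of all tested genes. The median ratio of highest to lowest was 1.45 for the members and 1.53 over all tested genes, both close to that limit. The median residual SD of the members was 0.13 on the log2 scale, against 0.20 over all tested genes. Over all 6 libraries it was 0.63 and 0.64. In the fit of libraries 2 and 3, a choice made with earlier results of these data known, 0 of 25 members passed (limma adjusted p of at least 0.281), against 0.503% of all tested genes. Member log2 fold changes there ran from -0.36 for slc-36.2 to 0.57 for pept-1, with a median of 0.15 against -0.02 over all genes. Both tryptophan values were above both controls for 10 members (40%), against 21.4% of all tested genes, and below for 4 (16%), against 25%. Those above were aat-1, aat-3, aat-6, aat-9, pept-1, slc-36.4, snf-1, snf-5, snf-8 and snf-10, and those below were slc-36.2, snf-2, snf-7 and snf-9. Of these, snf-8 was tested only because its tryptophan values lifted its mean past the filter. With 2 libraries a group such an order is a description and carries no test.

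Summed over the 30 genes, transporter mRNA was 307, 313 and 281 FPKM in control libraries 1 to 3 and 208, 340.4 and 329.7 FPKM in tryptophan libraries 1 to 3. The groups overlapped, and tryptophan library 1 was the lowest. pept-1, snf-5 and skat-1 together made up 33.6% to 42.4% of the sum in each library. The peptide carriers summed to 48.7, 59.8 and 56.2 FPKM in control and 43.4, 84.0 and 76.3 FPKM with tryptophan, most of it pept-1. Total FPKM over all genes differed between libraries, at 1013590, 733462 and 824915 in control and 1115616, 715748 and 608336 with tryptophan. The sums given here are not corrected for those totals.

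Other genes of amino acid transport and of amino acid sensing also gave 0 calls. In the first list 12 genes were tested, with a log2 fold change above 0 for 3, below 0 for 9 and a median of -0.21, or -0.03 in libraries 2 and 3. The listed genes with the smallest p were laat-1, a lysosomal exporter of lysine and arginine (-0.77, SE 0.52), and glt-1, a glutamate carrier (-0.67, SE 0.57), on the lower side and glt-5 (0.40, SE 0.48) and nhx-2 on the higher side, each with limma adjusted p of at least 0.802. In libraries 2 and 3 laat-1 stood at -0.03 (SE 0.23), and both glt genes turned direction, glt-1 to 0.14 (SE 0.19) and glt-5 to -0.14 (SE 0.21). For laat-1 control library 1 had 101 FPKM, tryptophan library 1 had 20.4 FPKM, and the other 4 had 33.9 to 48.6 FPKM. Carriers of serotonin (mod-5), dopamine (dat-1) and of GABA into vesicles (unc-47), with the glutamate carrier glt-7, were below the filter at means of 0.339 to 0.939 FPKM in either group.

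The sensing list held the TOR kinase let-363, the Rag GTPases raga-1 and ragc-1, the kinase gcn-2, which responds to uncharged tRNA, the factor atf-4 and their partners. Here 21 genes were tested, with a log2 fold change above 0 for 1, below 0 for 20 and a median of -0.46, and the median in libraries 2 and 3 was 0.25. lmtr-3 (-0.94, SE 0.47) and rheb-1 (-0.59, SE 0.41) had the smallest p on the lower side, both with limma adjusted p = 0.802, and atf-4 was the 1 positive gene (0.09, SE 0.33, and 0.0039, SE 0.19, in libraries 2 and 3). For lmtr-3 and rheb-1, 2 of the 21, every tryptophan library was below every control, as for 4.32% of all tested genes. Both had their highest value in control library 1 and their lowest in tryptophan library 1, as had 13 of the 21 against 24% of all tested genes. Their log2 fold changes were smaller in libraries 2 and 3, at -0.31 (SE 0.21) for lmtr-3 and -0.26 (SE 0.19) for rheb-1. lmtr-3, a subunit of the complex that anchors Rag GTPases at the lysosome, had 114, 47.8 and 61.1 FPKM in control and 23.9, 45.4 and 41.5 FPKM with tryptophan. rheb-1, a GTPase that activates TOR, had 60.3, 31.2 and 31.1 FPKM in control and 24.9, 25.8 and 25.9 FPKM with tryptophan.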

How the data were processed

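The authors deposited 1 table of FPKM values per library, per the file headers. The submitters' processing notes name the genome build WBcel235 and the tools StringTie and Bowtie (0.12.2). No source used here gives the annotation release, strand setting or filters. Of 46589 identifiers 46180 matched the WBcel235 annotation (Ensembl release 115), and 2 members took their symbols from RefSeq's table of that assembly. Coordinates are 1-based. Members and gene lists were chosen with earlier results of these data known.

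Values were analysed as log2(FPKM + 1), which understates changes of low genes. Genes with a mean of at least 1 FPKM were tested in limma 3.58.1 (R 4.3.3) with group as the only term. Moderation was by eBayes with trend, tests were two-sided, and p-values were adjusted by the Benjamini-Hochberg method over all tested genes, with 0.05 as threshold. With 3 against 3 libraries the smallest p of an exact permutation test is 0.10. The fit was also run on simulated data. That outcome is not given here, so it does not show how the fit handles the spread among these libraries. All members are named. Other genes are those with the smallest p in each direction of each list, and genes that touch a member's result.

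Depth was estimated from low values. Over genes with 1 transcript of at least 600 bp, FPKM times transcript length fell within 0.2 of a whole multiple of a step for 71.2% to 73.8% of low values. The step was the one that fitted these same values best, and part of them would fall in such a window with any step. No counts were rebuilt, so counted units are approximate. Tables and figures used Python 3.11.15, pandas 2.3.3 and matplotlib 3.10.9. Alternatives changed the pseudocount (0.5 or 0.1), the filter (none, or a mean of at least 5 FPKM), the scaling (median, quantile or TPM), the eBayes options (robust, or no trend) and the model (a replicate block), left out each library, or used only libraries 2 and 3.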

Additional observations from a re-analysis of the deposited data

How the results depend on the processing

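In all 17 alternatives 0 members and 0 of the other transport and sensing genes passed limma's adjusted threshold. The count of members with every tryptophan library above every control, 2 over all libraries, was 0 with a mean of at least 5 FPKM (2.7% of all genes then tested), 0 after rescaling to TPM (4.63%), 2 to 7 with 1 library left out (5.19% to 11.9%) and 10 in libraries 2 and 3 (21.4%). The count with every one below, 0 over all libraries, was 0 to 1 with 1 library left out (5.51% to 14.5%) and 4 in libraries 2 and 3 (25%). Rescaling to TPM kept all 25 members, all 13511 genes and all 6 libraries, while the other settings listed here had fewer genes or libraries. The cause of these shifts was not tested. The median log2 fold change of the members, 0.17, ran from -0.08 without control library 1 to 0.29 without control library 2, and was -0.05 with quantile normalization. Of 416 log2 fold changes of members under the alternatives 36 had the opposite sign, in 19 members, and none of these passed the threshold. Rescaling to TPM moved the median of all tested genes by 0.10, and the member median then stood 0.22 above it, against 0.20 with the deposited values. With a replicate block 0 members passed and the median was 0.17. Libraries with the same number did not deviate together (correlations of -0.372, -0.296 and -0.344 for numbers 1 to 3). These values cannot tell whether the numbers pair libraries, since every deviation from a group mean carries the offset of library 1. The labels do not state a pairing. Low members such as snf-4 and snf-8 rest on few counted units in some libraries, which limits their precision.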
